A study of Mus musculus with 10 samples.

Results

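The 41 genes described here were grouped as genes of the red blood cell, though some, such as Nfe2, also serve other cells. They encode hemoglobin, the enzymes that make heme, iron carriers, membrane proteins, erythroid transcription factors and proteins of the maturing reticulocyte. They were chosen by name, with earlier results of these data known, and looked up by gene name in a table of RNA levels from mouse blood neutrophils. Of the 41, 40 were among the 54146 genes of the table. Ahsp, which encodes a chaperone of alpha globin, was not analysed here. A filter on low values (at least 1 RPKM in at least 2 libraries, where RPKM is a read number divided by gene length and library total) kept 27 members for testing and left out 13.

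The libraries came from CD11b+ Ly-6G+ cells, the surface phenotype of neutrophils, sorted from peripheral blood 14 days after an injection into the kidney. All mice were BALB/c nu/nu, athymic animals that are poor in T cells and accept human tumours. Sham mice received vehicle, and the other mice received human clear cell renal cell carcinoma cells of OSPa, OS5K #1, OS5K #2 or OS5K #3. These belong to the cell line OS-RC-2 and its derivatives, and the labels give no further definition of the names. Each of the 5 groups had 2 libraries, which makes 10 in all, and the labels name no further treatment. They do not say whether the libraries of a group came from separate mice or pools, so the p-values measure only the spread between libraries, which may be technical.

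Red cells are made in the marrow from erythroblasts, which switch on globin, heme and membrane genes together under transcription factors such as GATA1 and KLF1. The nucleus is then lost, and the young red cell, the reticulocyte, enters the blood with a store of RNA rich in globin that it degrades within a short time. Neutrophils are not known for making hemoglobin.

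Total reads, recovered from the steps of the RPKM values, lay between 13765576 and 15514537 per library. The 9 neutrophil markers were all tested and none was called between OS5K, OSPa and sham, with 69272 to 84676 summed RPKM in OS5K, 71771 to 75673 in OSPa and 63844 to 65312 in sham. The markers of the labelled cell type were thus abundant in every group. Hemoglobin also stood among the most abundant transcripts: Hba-a1 ranked between 1 and 4 among all genes in every library and Hbb-bs between 3 and 5.

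The alpha and beta chains of adult hemoglobin are each encoded by a pair of close copies. On the GRCm38 (mm10) assembly Hba-a1 lies at chr11:32283511-32284465 and Hba-a2 at chr11:32296489-32297298, both on the plus strand, while Hbb-bs lies at chr7:103826534-103828096 and Hbb-bt at chr7:103812524-103813996, both on the minus strand. The copies are shown because they bear on how reads can be divided between them. The GENCODE coding sequences have 429 bases in the alpha pair and 444 in the beta pair, and within each pair they differ at 1 base (99.77% identity). Counted from the first base of the start codon, the difference is C381T from Hba-a1 to Hba-a2 and C417T from Hbb-bs to Hbb-bt. A stretch around it, from base 351 to 410 of the alpha genes and from base 385 to 444 of the beta genes, has the differing base in capitals.
Hba-a1: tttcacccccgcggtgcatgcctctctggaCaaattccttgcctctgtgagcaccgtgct
Hba-a2: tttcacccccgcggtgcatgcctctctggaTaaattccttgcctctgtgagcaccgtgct
Hbb-bs: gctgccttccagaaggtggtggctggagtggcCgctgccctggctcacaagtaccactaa
Hbb-bt: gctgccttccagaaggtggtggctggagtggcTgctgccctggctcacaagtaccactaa
Reads that miss these bases and the untranslated ends match both copies of a pair. These gene models are those of the reference strain, and BALB/c mice carry another haplotype of the beta locus, so the values below are those of reads assigned to the reference models.

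Hemoglobin RNA was lowest in the mice with OSPa. The 4 adult genes together took 4.80% and 4.14% of all reads in sham, 1.59% and 2.19% in OSPa, 9.52% and 5.16% in OS5K #1, 4.40% and 4.39% in OS5K #2, and 5.11% and 3.46% in OS5K #3. Both OSPa libraries lay below the other 8, and OS5K #1 replicate 1 stood far above all. The sham libraries lay within the range of the OS5K libraries. Wilson 95% intervals were narrow at this depth, from 1.58% to 1.59% for the lowest library and from 9.50% to 9.53% for the highest, and they cover counting error only.

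**Figure D1:**
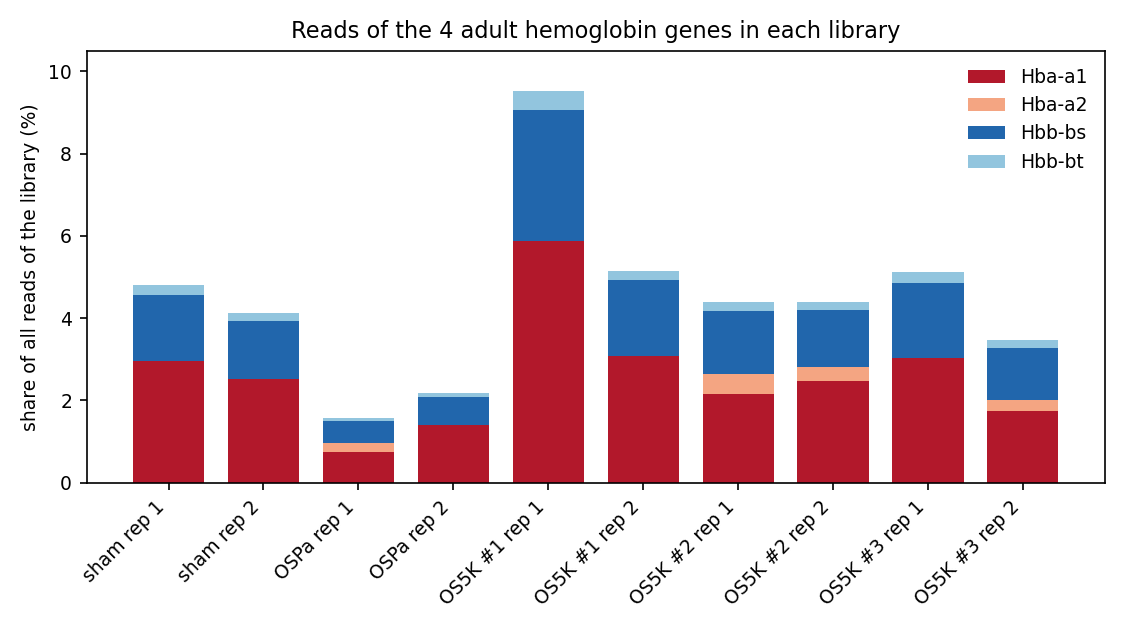
Share of all reads in the 4 adult hemoglobin genes (vertical axis, percent) as stacked bars, 1 per library, with a colour for each gene. Both OSPa libraries, at 1.59% and 2.19%, lie below the 2 sham and 6 OS5K libraries, and the tallest bar is OS5K #1 replicate 1 at 9.52%.

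Both beta-globin genes rose in OS5K mice relative to OSPa. Hbb-bs stood at 20734 and 18196 RPKM in sham and at 7080 and 8833 in OSPa. In the 6 OS5K libraries its lowest value was 16241, its median 21897 and its highest 41548. OS5K and OSPa did not overlap, and the sham values fell within the OS5K range. The log2 fold change of OS5K (mean of the 3 lines) over OSPa was 1.52 (SE 0.22, limma adjusted p = 0.030). Under quantile normalization it was 0.60 and the call was lost (limma adjusted p = 0.589). That setting gives all libraries the same set of values by rank. Hbb-bs ranked between 3 and 5 in every library, so the setting limits its differences. A gene was called at an adjusted p under 0.05, and in this comparison 28 of 8039 tested genes were called, or 0.348%, all of them higher in OS5K. In bulk samples such as these, fewer cells of a type and less RNA per cell cannot be told apart, and the part of red cells or their fragments in the sorted material was not tested.

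Hbb-bt, the other adult beta gene, rose as well. Its levels were 3489 and 2994 RPKM in sham, 1041 and 1459 in OSPa, and between 2782 and 6420 in OS5K with a median of 3254. Again both OSPa libraries were below all OS5K and both sham libraries. OS5K exceeded OSPa by 1.51 on the log2 scale (SE 0.23, limma adjusted p = 0.031). Hbb-bt made up between 11.6% and 13.6% of the beta-globin reads of a library.

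Hba-a1, the main alpha-globin gene here, was not called. It stood at 36475 and 31106 RPKM in sham, 9073 and 17367 in OSPa, and between 21549 and 72322 in OS5K with a median of 33860. The groups OSPa and OS5K did not overlap, but the spread within them was wider than for the beta genes, and the log2 fold change of 1.47 (SE 0.31) had a limma adjusted p of 0.11. Under quantile normalization it was 0.68, but that setting also limits differences of Hba-a1, which ranked between 1 and 4 in every library.

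Hba-a2 was either near absent or abundant, and libraries of a group could differ in this. It was at 29.5 and 42.0 RPKM in sham, 3470 and 11.4 in OSPa, 63.9 and 54.9 in OS5K #1, 7569 and 4875 in OS5K #2, and 33.7 and 3991 in OS5K #3. Both sham and both OS5K #1 libraries were low and both OS5K #2 libraries high, while OSPa and OS5K #3 each had 1 library on either side of the gap. As a share of all alpha-globin reads, Hba-a2 took 23.9% in OSPa replicate 1, 19.1% and 11.6% in OS5K #2 and 13.2% in OS5K #3 replicate 2, against at most 0.119% in the other 6 libraries. Its log2 fold change of 1.31 had an SE of 2.59 (limma adjusted p = 0.99). The ratio of alpha to beta reads, both copies summed, stayed between 1.40 and 1.81 in all libraries. How the authors assigned reads that match both alpha genes is not given in the sources used here, and its part in this pattern was not tested.

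Hbb-y, the embryonic beta-like globin, was barely detected but passed the test. It was at 0.714 and 0.552 RPKM in sham, 0 and 0.211 in OSPa and 0.763 to 1.38 in OS5K, with a median of 0.957. These levels stand for few reads, 71 over the 10 libraries, of which OSPa had 0 and 2 and OS5K between 7 and 12. On the log2 scale OS5K exceeded OSPa by 0.87 (SE 0.13, limma adjusted p = 0.030), a value that ran from 0.24 with a pseudocount of 5 to 3.08 with limma-voom on recovered reads, where the call was lost. Hbb-y and Tfrc reached 1 RPKM only in OS5K libraries, so they entered the test through the group in which they were high. Outside OS5K, Alad and Xpo7 reached it only in sham replicate 1, so they too passed the filter only with OS5K libraries. Of 11 other globin genes listed beside the members, 9 were in the table and 2 could be tested, the theta-like genes Hbq1a (0.69 on the log2 scale with an SE of 0.18, limma adjusted p = 0.21) and Hbq1b (1.24, SE 0.39, adjusted p = 0.36). Hbb-bh0 was listed at 0 in every library.

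Heme synthesis runs from glycine and succinyl-CoA through a chain of enzymes to the insertion of iron. Of the 6 tested genes of heme synthesis and breakdown, only the last of the chain was called for OS5K against OSPa. Alas2, the erythroid form of the first and rate-limiting enzyme, was at 346 and 274 RPKM in sham, 113 and 176 in OSPa, 998 and 458 in OS5K #1, 430 and 417 in OS5K #2 and 436 and 258 in OS5K #3. OSPa was again lowest with no overlap, and the spread between the OS5K libraries was large. For the mean of the OS5K lines the difference from OSPa was 1.70 on the log2 scale (SE 0.30), with a limma adjusted p of 0.072. Alas2 passed the threshold for OS5K #1 against OSPa alone (2.26, SE 0.37, adjusted p = 0.049).

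Fech, ferrochelatase, which places iron into the porphyrin ring, was at 78.1 and 70.8 RPKM in sham, 32.3 and 44.4 in OSPa and 69.3 to 194 in OS5K, with a median of 99.3. No OSPa library reached the level of any other library. Fech rose by 1.45 on the log2 scale (SE 0.21, limma adjusted p = 0.030).

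The other heme enzymes gave no calls. Alad, which joins the first product into a pyrrole ring, had a mean of 0.718 RPKM over the 10 libraries, and its log2 fold change was 0.41 (limma adjusted p = 0.73). Urod, a decarboxylase in the middle of the pathway, had a mean of 5.60 RPKM and a log2 fold change of 0.23 (adjusted p = 0.92), which fell to -0.03 without OSPa replicate 1. Ppox, the enzyme before ferrochelatase, had a mean of 19.2 RPKM and was at -0.20 (adjusted p = 0.86). Blvrb, a biliverdin reductase abundant in red cells, had a mean of 5.50 RPKM and a log2 fold change of 0.57 (adjusted p = 0.58). Uros and Cpox, which act between Alad and Ppox, were below the filter, with 21 to 41 reads and 5 to 23 reads per library. Among 24 further genes of heme synthesis, iron-sulfur assembly and heme transport, 17 could be tested, 12 were higher and 5 lower in OS5K, and 0 were called (median log2 fold change 0.04, against 0.02 over all tested genes). The most abundant of them were Tmem14c, a porphyrin importer of mitochondria, at 78.5 to 106 RPKM (log2 fold change -0.14, adjusted p = 0.93) and the scaffold protein Iscu at 40.0 to 55.5 RPKM (0.10, adjusted p = 0.98). Over the 17 tested, log2 fold changes ran from -0.33 for Slc25a28 (limma adjusted p = 0.375) to 1.25 for Slc25a39 (adjusted p = 0.072).

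Iron supply to mitochondria was represented by a carrier and an assembly factor, both of which rose. Slc25a37, mitoferrin, carries iron across the inner mitochondrial membrane. It was at 30.4 and 28.6 RPKM in sham, 21.6 and 23.2 in OSPa, 60.8 and 47.4 in OS5K #1, 38.1 and 33.1 in OS5K #2 and 34.5 and 31.7 in OS5K #3. All OS5K libraries were above both sham libraries, and both sham libraries were above OSPa. The rise over OSPa was 0.81 on the log2 scale (SE 0.12, limma adjusted p = 0.030).

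Isca1, which helps assemble iron-sulfur clusters, was at 26.4 and 23.5 RPKM in sham, 12.1 and 16.3 in OSPa and 25.2 to 58.0 in OS5K, with a median of 31.8. OSPa lay below all other libraries. Isca1 rose by 1.23 on the log2 scale (SE 0.17, limma adjusted p = 0.030). Tfrc, the transferrin receptor through which erythroblasts take up iron, was near the filter in all groups, between 0.496 and 1.29 RPKM (log2 fold change 0.21, adjusted p = 0.90).

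Membrane genes showed large differences with wide errors. Slc4a1, the anion exchanger band 3, was between 1.10 and 29.1 RPKM and had the largest log2 fold change of the tested members, 1.81 (SE 0.45), with a limma adjusted p of 0.19. It was 0.81 without OSPa replicate 1 and, past the threshold, 2.82 without OSPa replicate 2 (adjusted p = 0.044). Taken as a ratio, its OSPa libraries, at 1.10 and 7.45 RPKM, differed more from each other than those of any other tested member except Hba-a2 and Hbb-y. Epb41, protein 4.1 of the membrane skeleton, lay between 10.4 and 43.4 RPKM (1.05, SE 0.19, adjusted p = 0.072).

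The other 7 membrane members were below the filter. Epb42, protein 4.2, had 10 and 28 reads in OSPa, 27 and 28 in sham and 49 to 176 in OS5K. Sptb, beta spectrin, had 32 to 89 reads in OSPa and 87 to 266 in OS5K, and Ank1, the ankyrin that ties spectrin to band 3, had 6 to 7 and 8 to 55. The blood group proteins Rhag and Rhd had at most 28 and 36 reads in a library. Tmcc2 had 8 to 96 reads, and Tspo2, a translocator protein of erythroid cells, was between 0.0226 and 1.46 RPKM. The highest library of each of these 7 was OS5K #1 replicate 1. Of 22 further membrane genes, 8 could be tested, 5 higher and 3 lower in OS5K, and 1 was called higher.

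Both red cell enzymes were higher in OS5K without a call. Bpgm makes the phosphoglycerate that lowers the oxygen affinity of hemoglobin, and it lay between 16.6 and 145 RPKM (log2 fold change 1.57, SE 0.30, limma adjusted p = 0.083). Without OSPa replicate 1 it was 1.04. Car2, a carbonic anhydrase, lay between 1.04 and 18.5 RPKM (1.63, SE 0.32, adjusted p = 0.086).

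Of the 5 erythroid transcription factors and nuclear proteins, 2 could be tested, Gata1 and Nfe2, and neither was called. Klf1, an activator of the adult beta-globin gene, gave 12 reads in all, with 0 in both OSPa libraries and in OS5K #3 replicate 2, 1 in each sham library and 5 in OS5K #1 replicate 1. A count of 0 allows up to 3 reads, so no difference between groups was detectable at this depth. Gata1, which also serves platelets and their precursors, was between 0.322 and 1.81 RPKM, lowest in the library richest in hemoglobin, OS5K #1 replicate 1, and its difference was -0.26 on the log2 scale (SE 0.25, limma adjusted p = 0.94). Nfe2, a factor of both red cell and platelet lineages, was well expressed at 56.9 to 78.4 RPKM and differed by -0.06 on the log2 scale (SE 0.16, adjusted p = 1.00). Tal1 and Hemgn were below the filter with 9 to 30 and 3 to 14 reads. Among 18 further erythroid factors and receptors 10 could be tested, 6 higher and 4 lower, and the only call was Tfdp2, a partner of E2F factors in red cell maturation (log2 fold change 1.20, SE 0.18, adjusted p = 0.030). Tfdp2 was at 1.34 and 1.35 RPKM in sham, 0.435 and 1.17 in OSPa and 2.19 to 5.35 in OS5K.

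Of the 8 members of reticulocyte maturation, 7 were tested, all 7 were higher in OS5K than in OSPa, and 3 were called. Fam46c, a poly(A) polymerase that adds tails to messenger RNA, was at 39.7 and 35.6 RPKM in sham, 15.9 and 23.7 in OSPa, 102 and 61.2 in OS5K #1, 61.5 and 46.2 in OS5K #2 and 50.8 and 41.8 in OS5K #3. The sham libraries stood between OSPa and OS5K with no overlap on either side. Relative to OSPa it rose by 1.53 on the log2 scale (SE 0.22, limma adjusted p = 0.030).

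Ube2l6, an enzyme that conjugates the ubiquitin-like protein ISG15, was at 100 and 94.2 RPKM in sham, 32.1 and 51.5 in OSPa and 84.5 to 237 in OS5K, with a median of 115. OSPa lay below all other libraries. Its rise was 1.57 on the log2 scale (SE 0.26, limma adjusted p = 0.047). Fam220a was at 18.5 and 19.3 RPKM in sham, 10.6 and 11.5 in OSPa and 17.7 to 39.8 in OS5K, with a median of 22.7. It had the smallest p of the members and rose by 1.10 on the log2 scale (SE 0.14, adjusted p = 0.025).

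The other members of this role were not called. Bnip3l, which targets mitochondria for removal, lay between 84.1 and 159 RPKM (log2 fold change 0.51, SE 0.11, limma adjusted p = 0.13). The ubiquitin ligase Mkrn1 lay between 73.4 and 160 RPKM (0.54, adjusted p = 0.29), Trim10 between 0.832 and 12.5 RPKM (1.40, adjusted p = 0.16) and the nuclear transport protein Xpo7 between 0.814 and 1.27 RPKM (0.20, adjusted p = 0.81). Trim58, a ligase that acts during enucleation, was below the filter with 1 to 8 reads. Of 18 further genes of this kind 17 were tested, 13 higher and 4 lower, with 0 calls and a median log2 fold change of 0.52. The most abundant were Ubb, a ubiquitin gene, at 1635 to 2248 RPKM (log2 fold change 0.06, adjusted p = 1.00) and the peroxidase Gpx1 at 514 to 822 RPKM (0.14, adjusted p = 0.94).

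**Figure D2:**
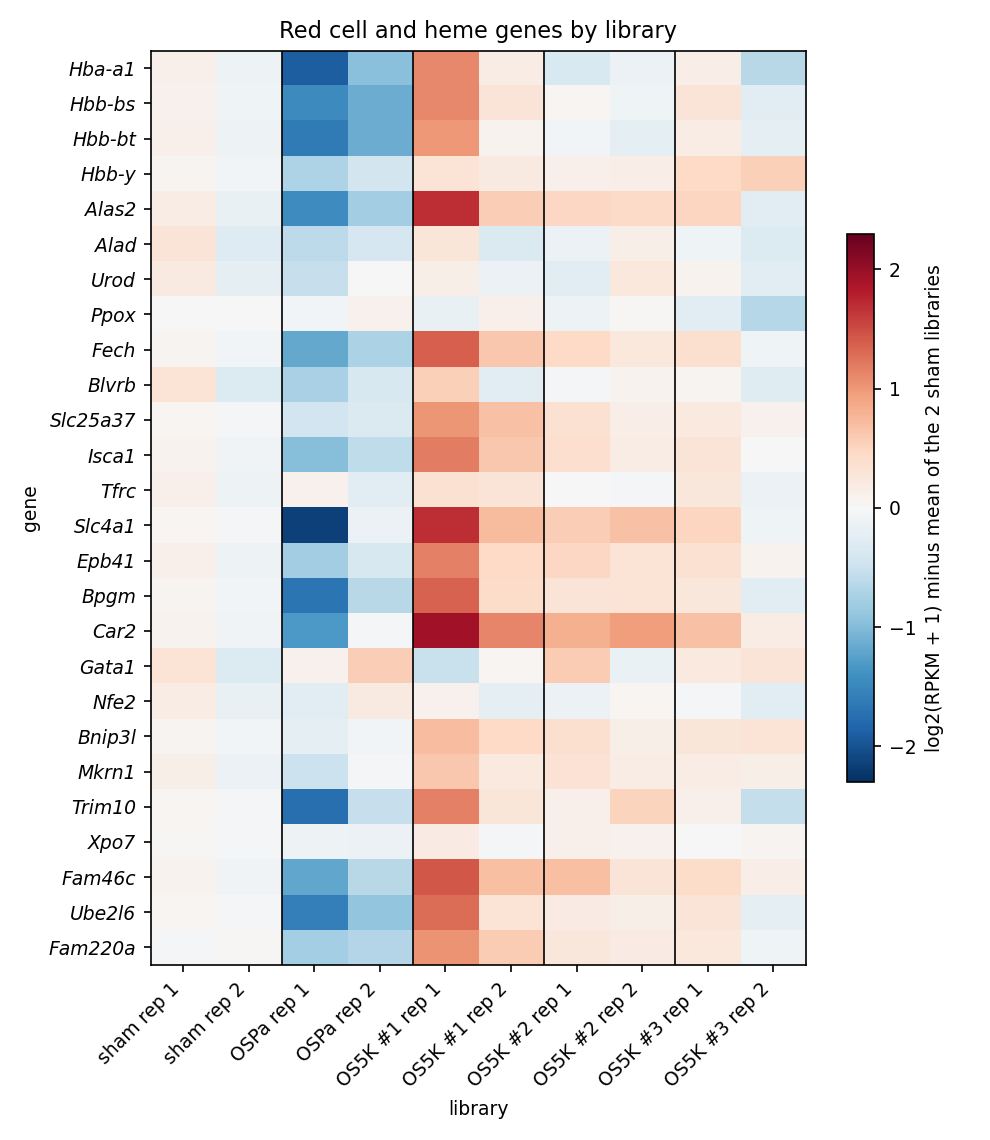
Levels of the tested members except Hba-a2 as log2(RPKM + 1) minus the mean of the 2 sham libraries (colour), with members as lines by role and libraries as columns by group. The OSPa columns are lowest and the OS5K #1 replicate 1 column is highest for most members, while Nfe2, Gata1 and Ppox do not follow that order.

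Over the 27 tested members, 24 were higher and 3 lower in OS5K, where 54.6% of all tested genes were higher. The median difference of these members from OSPa was 1.10 on the log2 scale, against 0.02 over all tested genes. The test called 9 of them, all higher, among them Hbb-y, which passed the filter only through OS5K libraries, and 19 had an unadjusted p under 0.05, all higher, where 5.97% of all tested genes did. In 20 members both OSPa libraries lay below all 6 OS5K libraries, a pattern found in 5.45% of tested genes. Hbb-y, Alad and Xpo7 are among these 20. They and Tfrc passed the filter only with OS5K libraries, so their part in these counts is a description. The count of calls depended on single libraries. It was 0 without OSPa replicate 1 or without OS5K #3 replicate 1, 1 without OSPa replicate 2, OS5K #2 replicate 1 or OS5K #3 replicate 2, 2 without OS5K #2 replicate 2, and 14 without OS5K #1 replicate 2. With no filter on low values 0 members were called.

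Taken singly, each line was above OSPa in most members, 23, 24 and 24 of 27 for OS5K #1, #2 and #3. Of all tested genes, 33.15%, 63.23% and 64.59% were above OSPa. For OS5K #1, 9 members were called higher, where 0.336% of tested genes were: Hbb-bs, Hbb-bt, Alas2, Fech, Slc25a37, Isca1, Fam46c, Ube2l6 and Fam220a. Among them were Fech (1.95 on the log2 scale with an SE of 0.26, limma adjusted p = 0.022) and Slc25a37 (1.23, SE 0.15, adjusted p = 0.022). That count was 0 without OSPa replicate 1 or OS5K #1 replicate 1, 2 without OSPa replicate 2, and 4 when only these groups were fitted. For OS5K #3 the only member called was Hbb-y (1.07, SE 0.16, adjusted p = 0.044), where 0.199% of tested genes were called, and Hbb-y lost that call when any 1 of the 10 libraries was left out. Hbb-y entered the test only through OS5K libraries, so this call is given as a description. For OS5K #2 limma called 0 members and 0% of genes, as did limma-voom for the members, while 18 members were higher at an unadjusted p under 0.05, as were 5.24% of genes. Median log2 fold changes of the tested members were 1.39, 0.98 and 0.84 for OS5K #1, #2 and #3.

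These 3 comparisons share the OSPa libraries, so their values are not independent. Tested directly against each other, the lines gave 0 calls among members and 0% of all genes by limma and by limma-voom. At an unadjusted p under 0.05 there were 7 members, Hbb-bs, Ppox, Fech, Slc25a37, Isca1, Fam46c and Fam220a, and 6.66% of all genes. The mean of OS5K #1 was the highest of the 5 group means in 19 of 27 members, against 6.88% of tested genes. In 20 members the highest library was OS5K #1 replicate 1, as it was for 5.04% of tested genes. Tfrc is in both counts and Xpo7 is among the 20, and both passed the filter only with OS5K libraries.

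Against sham, OSPa was lower in most members but none was called. Of 27 members 24 were lower and 3 higher, with a median log2 fold change of -0.58 against -0.04 over all tested genes. Of all tested genes, 41.29% were higher in OSPa. Limma and limma-voom gave 0 calls among members and limma 0% of all genes, and the smallest adjusted p of a member was 0.588. At an unadjusted p under 0.05 there were 14 members, all lower in OSPa, and 4.27% of all genes were lower at that level. The log2 fold changes were -1.42 for Hba-a1 (SE 0.38), -1.30 for Hbb-bs (SE 0.27), -1.39 for Hbb-bt (SE 0.29), -1.12 for Alas2 (SE 0.37) and -0.95 for Fech (SE 0.26). In 18 members both OSPa libraries lay below both sham libraries, a pattern of 22.2% of tested genes. This comparison uses the same OSPa libraries as the one above.

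Between OS5K and sham the members differed less. Limma called 0 members and 0% of all genes, limma-voom 0 members, and the smallest adjusted p was 0.279, that of Slc25a37 (log2 fold change 0.42, SE 0.12). The median was 0.30 against -0.02 over all tested genes. In OS5K 23 members were higher and 4 lower, where 45.47% of all tested genes were higher. At an unadjusted p under 0.05 there were 9 members, all higher, and 5.49% of genes. All 6 OS5K libraries lay above both sham libraries for 5 members, Hbb-y, Slc25a37, Car2, Bnip3l and Fam46c, and for 6.66% of tested genes. Hbb-y entered the test only through OS5K libraries, so its place among these 5 and among the 9 is a description. For the abundant globins the differences from sham were within error: 0.05 for Hba-a1 (SE 0.31), 0.23 for Hbb-bs (SE 0.22) and 0.12 for Hbb-bt (SE 0.23). The sign for Hba-a1 and Hbb-bs turned under quantile normalization, and that for Hba-a1 and Hbb-bt without OS5K #1 replicate 1. Quantile normalization limits the differences of genes at the top ranks of every library, such as Hba-a1 and Hbb-bs.

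**Figure D3:**
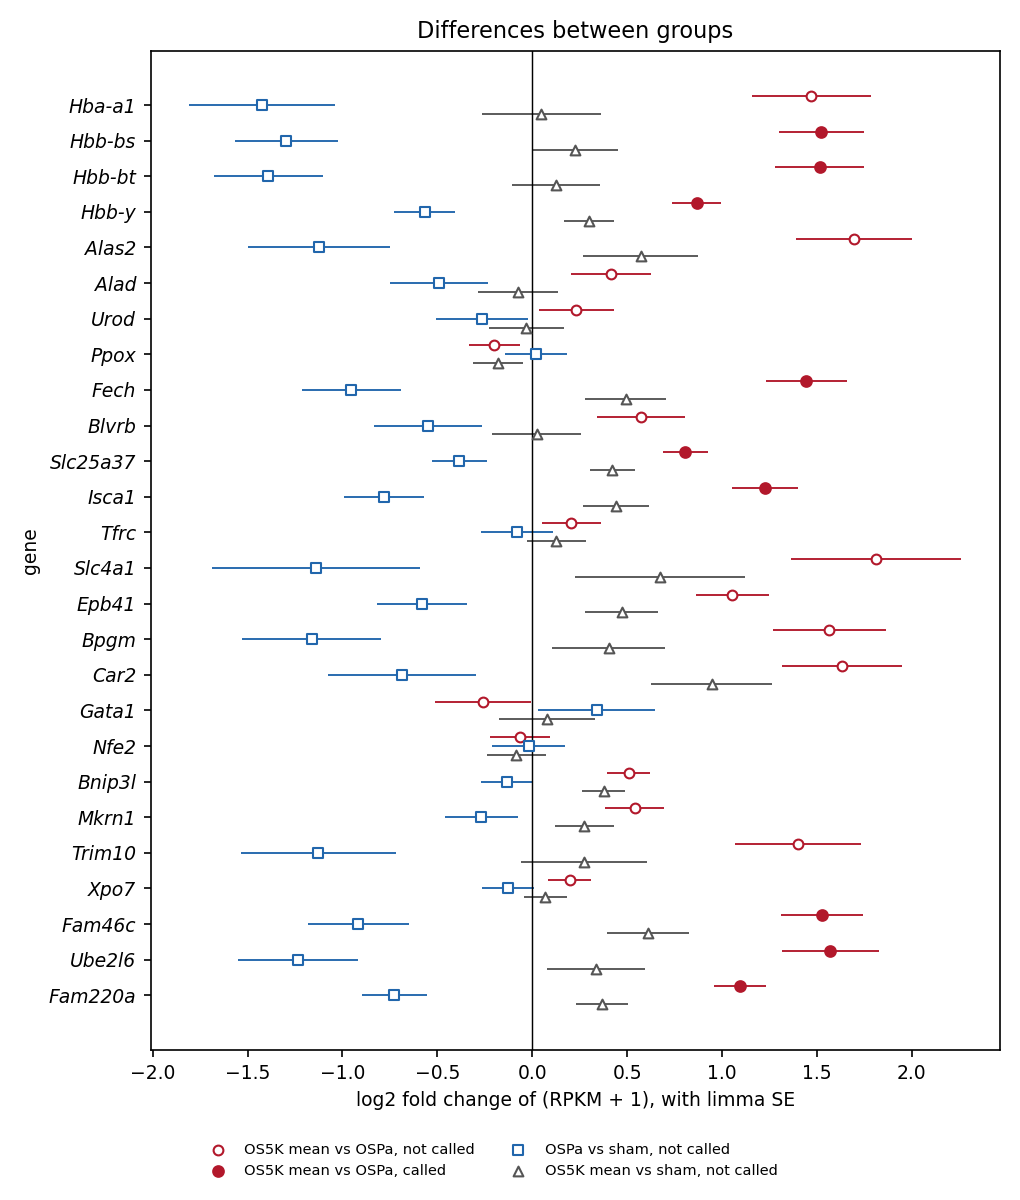
Log2 fold change of (RPKM + 1) with its limma SE (horizontal axis) for the tested members except Hba-a2, in OS5K over OSPa, OSPa over sham and OS5K over sham. Filled circles are the 9 members called for OS5K over OSPa, such as Fam220a at 1.10, and no member is called in the other comparisons.

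Many red cell members kept a steadier proportion to beta globin than their levels alone show. Each level was divided by that of Hbb-bs in the same library and given per 1000 RPKM of Hbb-bs, which itself varied 5.87-fold between its lowest and highest library. Ube2l6 varied 7.39-fold as a level and 1.30-fold as a ratio, between 4.53 and 5.88. Fech varied 6.01-fold as a level and 1.37-fold as a ratio, between 3.76 and 5.14. Alas2 went from 8.87-fold to 1.60-fold, with its highest ratio, 24.0, in OS5K #1 replicate 1. Isca1 went from 4.78-fold to 1.45-fold, Fam46c from 6.44-fold to 1.61-fold and Hbb-bt from 6.17-fold to 1.19-fold.

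Of the 25 members compared with Hbb-bs and detected in all libraries, 16 spread less as a ratio than as a level, as did 186 of 7979 tested genes, or 2.33%. The ratio shares its denominator across genes, so these counts are a description. The members that spread more as a ratio were Hba-a2, Urod, Ppox, Tfrc, Gata1, Nfe2, Bnip3l, Mkrn1 and Xpo7. Nfe2 varied 1.38-fold as a level and 5.02-fold as a ratio, and Gata1 5.62-fold and 26.4-fold.

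**Figure D4:**
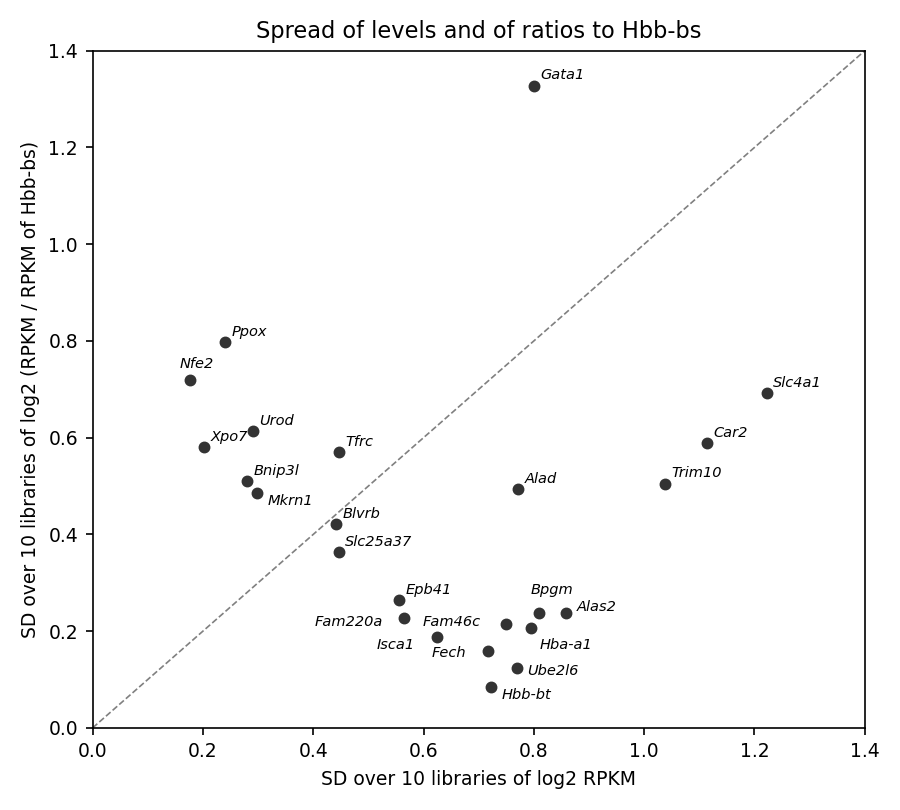
SD over the 10 libraries of log2 RPKM (horizontal axis) and of log2 of the ratio to Hbb-bs (vertical axis), 1 point per member detected in every library, without Hba-a2. Points under the dashed line of equality vary less as a ratio, such as Ube2l6 (SD 0.77 as a level and 0.12 as a ratio), and points above it, such as Nfe2 (0.18 and 0.72), vary more.

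Markers of other blood cells were measured in the same libraries. All 15 platelet markers were tested and 0 were called by limma in the 3 main comparisons, with 14 higher in OS5K than in OSPa. Their summed RPKM was 225 to 695 in sham, 417 to 745 in OSPa and 610 to 1620 in OS5K. The lowest OS5K sum, 610, was in OS5K #1 replicate 1, the library highest in hemoglobin, and the highest, 1620, was in OS5K #2 replicate 1. Of 12 monocyte markers 11 were tested and 2 called higher in OS5K than in OSPa, Ccr2 and Ms4a6c (both by 1.98 on the log2 scale, SE 0.26, limma adjusted p = 0.028). Summed monocyte markers were at 286 to 291 RPKM in sham, 234 to 250 in OSPa and 221 to 314 in OS5K. Summed B cell markers (7 of 9 tested) lay between 44.9 and 129 RPKM and T and NK cell markers (6 of 12 tested) between 20.8 and 33.5, with 0 called. Neutrophil precursor markers (1 of 8 tested, Mki67, not called) summed to between 1.28 and 2.19 RPKM, with Ctsg at 0 in every library. The part of these cells in the differences between groups was not tested.

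The regions before the start sites of the members, called or not, were searched for short motifs that red cell factors are known to bind. A start-site sequence from RefSeq (GRCm38.p6) was found for 32 members, 42 promoters in all, and not for Fech, Slc25a37, Slc4a1, Ank1, Car2, Nfe2, Bnip3l, Xpo7 and Ahsp. In the 250 bases before the start, on both strands, AGATAA or TGATAA, forms of the GATA motif, was found in 15 of 42 promoters (35.7%), against 16.6% of the 32851 promoters in the RefSeq table. CCACACC, a form of the CACC box bound by KLF1, was found in 3 (7.14%, against 6.52%), and TATAAA, the TATA box, in 4 (9.52%, against 12.4%). Among the members called for OS5K against OSPa, Hbb-bs and Hbb-y had a GATA match. Hbb-bt, Isca1, Fam46c, Ube2l6 and Fam220a had none, and Fech and Slc25a37 had no sequence. The other members with a GATA match were not called (Alas2, Hba-a1, Hba-a2, Trim10) or were below the filter (Cpox, Epb42, Hemgn, Klf1, Rhag, Rhd, Tal1, Tmcc2, Uros). Motifs here may overlap and a match is a description, not a site.

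The 120 bases before the RefSeq start are shown for both beta-globin genes, Alas2 and Ube2l6, as examples of these matches. Capitals mark motif matches, on either strand. They lie at chr7:103827929-103828048 (minus strand), chr7:103813924-103814043 (minus), chrX:150547297-150547416 (plus) and chr2:84798708-84798827 (plus).
Hbb-bs: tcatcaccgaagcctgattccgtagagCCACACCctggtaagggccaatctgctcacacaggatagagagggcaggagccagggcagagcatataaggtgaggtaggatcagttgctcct
Hbb-bt: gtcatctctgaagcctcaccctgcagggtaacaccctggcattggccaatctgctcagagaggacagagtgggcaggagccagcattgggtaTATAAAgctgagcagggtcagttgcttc
Alas2: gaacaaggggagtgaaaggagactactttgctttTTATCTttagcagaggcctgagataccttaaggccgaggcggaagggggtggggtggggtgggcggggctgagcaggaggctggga
Ube2l6: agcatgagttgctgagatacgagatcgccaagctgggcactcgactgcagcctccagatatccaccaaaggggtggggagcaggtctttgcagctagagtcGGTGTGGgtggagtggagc
Hbb-bs has a CCACACC match and Hbb-bt a TATAAA match in this window. Alas2 has an AGATAA match and Ube2l6 a CCACACC match, each on the opposite strand.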

How the data were processed

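The samples were 10 libraries of sorted blood neutrophils, made with SMART-Seq v4 cDNA and an Ion Xpress Plus library kit, per the labels' protocols. The authors deposited RPKM values for each library. Their genome build was mm10, according to the submitters' processing notes. No aligner, counting tool, strand setting or rule for reads of several matches is named in the sources used here. The split between close copies such as the globin pairs is uncertain.

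Reads were recovered from the RPKM steps with GENCODE lengths on the same build. Within 0.02 reads, 84.7% of values were whole, and recovered totals serve as depth. Fech, Blvrb, Isca1, Fam220a and Tspo2 gave few or no whole values, so no reads are printed for them.

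The deposited RPKM values were transformed as log2(RPKM + 1), which understates the change of low genes. Limma 3.58.1 (R 4.3.3, trend and robust) fitted 5 group means to the 8039 genes that passed the filter of 1 RPKM in 2 libraries, with 5 residual degrees of freedom. Calls are at a Benjamini-Hochberg adjusted p under 0.05 over all tested genes. The fit was also run on simulated reads, drawn independently for each gene and library with a fixed spread. Those reads held no shift shared by the genes of a library, so that run does not bear on such shifts.

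Members and lists were chosen with earlier results of these data known. Library values, or the lowest, median and highest, are given for called members, adult globins and Alas2. From the further lists the called genes are named. Where none was called, the 2 of highest mean and those of lowest and highest log2 fold change are named. A called gene of the further membrane list stays in the counts and is not reported here. Settings also tried were a replicate block, quantile normalization, rescaling to reads outside adult hemoglobin, summed globin copies, no trend, other filters and pseudocounts, fewer groups, limma-voom on recovered reads, and leaving out each library.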

Additional observations from a re-analysis of the deposited data

Results flagged for a closer look

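For 12 of the 27 tested members, OS5K #1 replicate 1 stood apart above the other 5 OS5K libraries, with a gap to the next library above the 95% limit of Dixon's criterion for 6 values. The globins were Hba-a1 at 72322 RPKM, Hbb-bs at 41548 RPKM and Hbb-bt at 6420 RPKM, with the next library at 37986, 23847 and 3622. In heme synthesis and breakdown they were Alas2 at 998 RPKM (next 458), Fech at 194 RPKM (next 114) and Blvrb at 8.84 RPKM (next 6.11). The others were Slc4a1 at 29.1 RPKM, Epb41 at 43.4 RPKM, Bpgm at 145 RPKM, Mkrn1 at 160 RPKM, Fam46c at 102 RPKM and Ube2l6 at 237 RPKM. The rule picks about 1 in 20 groups by chance, and it picked 396 of all 8039 tested genes, or 4.93%. The 12 members share 1 library and are not independent. Without this library 9 members were called for the mean of the OS5K lines against OSPa, 8 of them among the 9 called with it, and 0 for OS5K #1 against OSPa.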

How the results depend on the processing

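For OS5K against OSPa, 9 members were called and the count ranged from 0 to 14 when 1 library was left out. It was 0 with no filter on low values. For OS5K #1 against OSPa (9) the range was 0 to 12, with 0 under no filter and 4 with only the groups compared. For OS5K #3 (1) the range was 0 to 1, with 0 under the replicate block, quantile normalization, no filter, a 5 RPKM filter, pseudocounts of 0.1 and 5 and limma-voom, and 2 with only the groups compared. The replicate block gave 7 calls for OS5K against OSPa and 7 for OS5K #1. Deviations of same-numbered libraries correlated between -0.38 and 0.45 over the 10 pairs of groups, so not every pair deviated together, and the numbers were not taken as a pairing. With the OSPa numbers crossed, a pairing chosen after seeing the data, 14, 14, 6 and 6 members were called for OS5K, OS5K #1, #2 and #3. OSPa or OS5K against sham, and the lines among themselves, gave 0 under every alternative run. The cause of these shifts was not tested.

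Of the 9 calls, Fam220a kept its call under 17 of 21 alternatives, Fam46c under 15, Fech, Isca1 and Slc25a37 under 14, Hbb-bs under 13, Hbb-bt under 13 of 20, Hbb-y under 9 of 20 and Ube2l6 under 5 of 21, all with the same direction. Quantile normalization, which limits differences of genes at the top ranks of every library, lowered Hbb-bs for OS5K against OSPa from 1.52 to 0.60. Signs turned for small or split values. For OS5K against OSPa, leaving out 1 library moved Hba-a2 from -2.75 to 5.37, Urod from -0.025 to 0.49 and Nfe2 from -0.28 to 0.15. For OSPa against sham, it moved Hba-a2 from -1.55 to 6.58. For OS5K against sham, quantile normalization put Hba-a1 at -0.0049 and Hbb-bs at -0.13. Leaving out 1 library moved Hba-a1 from -0.11 to 0.20, and Hbb-bt from -0.027 to 0.28. Libraries whose absence turned a sign were OSPa replicates 1 and 2, sham replicate 2, OS5K #1 replicate 1 and OS5K #3 replicate 1. Members of few reads (Klf1, Rhag, Trim58, Hbb-y) are limited by depth.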
